A study of Mus musculus with 18 samples.

Results

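The 7 cyclin-dependent kinase inhibitor genes of the mouse, Cdkn1a, Cdkn1b, Cdkn1c, Cdkn2a, Cdkn2b, Cdkn2c and Cdkn2d, were followed in maps of histone H3 lysine 27 trimethylation (H3K27me3) and acetylation (H3K27ac) from bone marrow-derived macrophages (BMDM). They were chosen by name, and are 7 of the 55413 genes of the GENCODE vM21 annotation and 7 of its 21938 protein-coding genes. Each gene was given a window from 5 kb upstream of its body to 1 kb past its end, and all peaks that touched the window by at least 1 bp were listed with their reads.

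The study compared BMDM of WT mice, labelled C57BL6, of mdx mice, labelled Dmdmdx-4Cv, and of mdxTLR4-/- mice, labelled Bl6/Bl10. The mdx mice carry a mutation in the dystrophin gene Dmd, and the mdxTLR4-/- mice carry it on top of a loss of Toll-like receptor 4. Marrow cells of all mice were grown into macrophages in medium with L929 cell supernatant, a source of macrophage colony-stimulating factor, and were left untreated. Each genotype had 2 H3K27me3 ChIP libraries with 2 inputs. H3K27ac was profiled in 2 WT libraries, 2 mdx libraries and a single mdxTLR4-/- library, with 1 input whose title names no genotype. For the H3K27me3 ChIP libraries the labelled age was 12 and 13 weeks in WT, 14 and 15 weeks in mdx, and 16 and 17 weeks in mdxTLR4-/- mice. For H3K27ac it was 19 and 20 weeks, 21 and 22 weeks, and 23 weeks, so labelled age, labelled strain and genotype cannot be told apart. Over all 18 samples the labelled ages step up by 1 week per sample in the order they are listed, and the study's methods name C57BL/6J as the background, so whether these ages and the Bl6/Bl10 strain describe the mice is not known. The authors merged the replicates before peaks were called, which left 1 list of peaks for each mark and genotype, so differences could not be set against the variation of mice and carry no p-value. The 95% intervals given here are exact Clopper-Pearson intervals of read counts and cover counting error only.

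The lists were unequal in number of peaks and in reads. WT, mdx and mdxTLR4-/- BMDM had 28143, 41780 and 36488 H3K27me3 peaks, with medians of 123, 89 and 75 reads and of 5400, 3400 and 3400 bp. All H3K27me3 peaks together held 8331331, 10199918 and 7358418 reads, so the mdx list held the most. The H3K27ac peaks numbered 15665, 12076 and 12493, with medians of 10, 10 and 8 reads and totals of 274020, 191629 and 168487. Of the mdxTLR4-/- H3K27ac peaks 34.7% held 6 reads or fewer, against 9.59% in WT and 8.10% in mdx. The cells carried the marks of macrophages at marker genes. All 8 macrophage markers had an H3K27ac peak and 0 of 8 an H3K27me3 peak in every genotype. At least 50% of the window was under H3K27me3 for 8 of 9 markers of B cells, T cells, erythroid cells, muscle and fibroblasts. The exception was Gata1, the only erythroid marker, which had no peak of either mark in any genotype. Of the 9, only the fibroblast collagen gene Col1a1 had H3K27ac reads (41 in WT BMDM, 7 in mdx and 30 in mdxTLR4-/-). The Tlr4 window held 52, 29 and 43 H3K27ac reads, mdxTLR4-/- included, so these peak lists do not check the deletion.

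Cyclin-dependent kinase inhibitors are small proteins that bind the kinases of the cell cycle or their cyclins and hold a cell back from DNA replication and division. They form a pair of families: the Cip/Kip proteins p21 (Cdkn1a), p27 (Cdkn1b) and p57 (Cdkn1c) act on several cyclin-kinase complexes, whereas the INK4 proteins p16 (Cdkn2a), p15 (Cdkn2b), p18 (Cdkn2c) and p19Ink4d (Cdkn2d) bind Cdk4 and Cdk6 and keep them from D-type cyclins. H3K27me3, laid down by the Polycomb complex PRC2, is a mark of silent genes, and the Cdkn2a and Cdkn2b locus is a textbook Polycomb target, while H3K27ac is found at active promoters and enhancers.

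Promoter sequences were taken from RefSeq (GRCm38.p6) as 250 bases before to 50 bases after a gene's start, with 9 entries for 6 of the 7 genes. The distal Cdkn2a and second Cdkn1a promoters are shown because the edges of peaks fell at them in mdx BMDM, and the other 4 as examples that lay wholly under a peak in the 3 genotypes. The remaining 3 entries, of Cdkn2d, the downstream Cdkn2c start and the first Cdkn1a start, are not printed. All are written 5′ to 3′ along the gene's strand in lower case, with each CpG dinucleotide in capitals. The distal Cdkn2a promoter (chr4:89294570-89294869, minus strand), which drives the p19Arf transcript, the proximal promoter of p16 (chr4:89282143-89282442, minus strand) and the Cdkn2b promoter (chr4:89310983-89311282, minus strand) lay under H3K27me3 in 1 or more genotypes. The upstream Cdkn2c promoter (chr4:109666707-109667006, minus strand), the Cdkn1b promoter (chr6:134920151-134920450, plus strand) and the second Cdkn1a promoter (chr17:29093519-29093818, plus strand) lay under H3K27ac in 1 or more genotypes.
Cdkn2a distal: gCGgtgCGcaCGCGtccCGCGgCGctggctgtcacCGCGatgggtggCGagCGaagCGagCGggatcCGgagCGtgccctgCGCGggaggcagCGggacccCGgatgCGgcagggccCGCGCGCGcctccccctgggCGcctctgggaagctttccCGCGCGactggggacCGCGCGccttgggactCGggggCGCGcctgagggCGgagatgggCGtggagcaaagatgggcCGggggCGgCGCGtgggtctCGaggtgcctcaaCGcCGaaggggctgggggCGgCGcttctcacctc
Cdkn2a proximal: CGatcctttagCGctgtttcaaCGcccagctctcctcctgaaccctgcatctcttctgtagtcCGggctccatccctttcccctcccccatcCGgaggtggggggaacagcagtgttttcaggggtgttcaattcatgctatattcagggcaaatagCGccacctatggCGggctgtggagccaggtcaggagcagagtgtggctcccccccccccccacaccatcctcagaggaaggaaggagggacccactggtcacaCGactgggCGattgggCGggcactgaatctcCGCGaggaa
Cdkn2b: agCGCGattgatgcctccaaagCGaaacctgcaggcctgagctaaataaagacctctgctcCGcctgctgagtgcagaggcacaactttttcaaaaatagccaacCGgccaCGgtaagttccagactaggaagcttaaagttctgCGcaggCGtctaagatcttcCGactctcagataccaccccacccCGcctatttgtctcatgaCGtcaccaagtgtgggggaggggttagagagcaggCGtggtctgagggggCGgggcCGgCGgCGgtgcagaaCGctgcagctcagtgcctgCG
Cdkn2c upstream: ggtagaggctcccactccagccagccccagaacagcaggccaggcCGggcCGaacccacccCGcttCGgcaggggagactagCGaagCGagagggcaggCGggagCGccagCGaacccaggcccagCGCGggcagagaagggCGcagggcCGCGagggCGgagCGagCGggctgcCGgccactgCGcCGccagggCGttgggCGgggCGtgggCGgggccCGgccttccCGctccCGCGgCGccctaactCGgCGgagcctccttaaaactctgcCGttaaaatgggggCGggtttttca
Cdkn1b: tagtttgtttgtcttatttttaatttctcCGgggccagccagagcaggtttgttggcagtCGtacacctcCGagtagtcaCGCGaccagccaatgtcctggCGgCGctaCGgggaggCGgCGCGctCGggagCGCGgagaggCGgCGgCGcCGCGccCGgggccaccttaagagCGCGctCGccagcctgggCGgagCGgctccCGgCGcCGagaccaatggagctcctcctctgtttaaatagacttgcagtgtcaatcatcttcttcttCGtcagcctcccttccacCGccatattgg
Cdkn1a second: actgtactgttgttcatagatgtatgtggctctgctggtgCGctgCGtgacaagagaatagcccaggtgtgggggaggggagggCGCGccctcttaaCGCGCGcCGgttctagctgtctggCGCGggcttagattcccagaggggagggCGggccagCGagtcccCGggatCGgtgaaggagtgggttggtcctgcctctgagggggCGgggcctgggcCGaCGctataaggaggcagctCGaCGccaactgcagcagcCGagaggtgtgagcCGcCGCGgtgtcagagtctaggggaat

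The distal Cdkn2a promoter held 45 CpG dinucleotides in its 300 bases, more than 98.1% of the 32851 promoters in the table, whose median was 7. The proximal Cdkn2a promoter held 12 and the Cdkn2b promoter 18. Of the promoters under H3K27ac, those of Cdkn1b and upstream Cdkn2c held 30 and 33 CpG and the second Cdkn1a promoter 23, so CpG content alone did not sort these sequences by mark. The first Cdkn1a promoter held only 2. The GC box GGGCGG, searched on both strands with overlaps counted and present in 35.7% of all promoters, occurred 3 times in the distal Cdkn2a promoter, 4 times in the upstream Cdkn2c promoter and 5 times in the Cdkn2d promoter.

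The inhibitors fell into 2 sets by H3K27me3, with the same genes in each set in the 3 genotypes. Cdkn1c, Cdkn2a and Cdkn2b lay in H3K27me3 domains that covered at least 92.2% of their windows, while Cdkn1b, Cdkn2c and Cdkn2d had no H3K27me3 peak in the window, as was so in every genotype for 55.5% of protein-coding genes, and Cdkn1a had one only past its 3′ end. At least 50% of the window was under H3K27me3 peaks for 3 of 7 genes in WT, mdx and mdxTLR4-/- BMDM, against 16.6%, 16.3% and 14.9% of protein-coding genes. No gene lay near this limit, since the lowest of the 3 was at 92.2% and the next gene at 3.35%. Any H3K27me3 peak was present for 4 of 7 genes in each genotype, against 38.4%, 41.3% and 39% of protein-coding genes. An H3K27ac peak was present for 4 genes in WT BMDM, 3 in mdx and 5 in mdxTLR4-/-, against 39.9%, 34.5% and 36.5% of protein-coding genes. Counting only peaks of at least 10 reads, it was present for 3 genes in each genotype, though not the same 3. The 3 genes with an H3K27ac peak in all genotypes were Cdkn1a, Cdkn1b and Cdkn2c, a pattern that 26.7% of protein-coding genes had. With 7 genes these counts describe the family and were not tested against the background. The plot of window coverage shows the 2 sets side by side with the reads behind each bar.

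**Figure D1:**
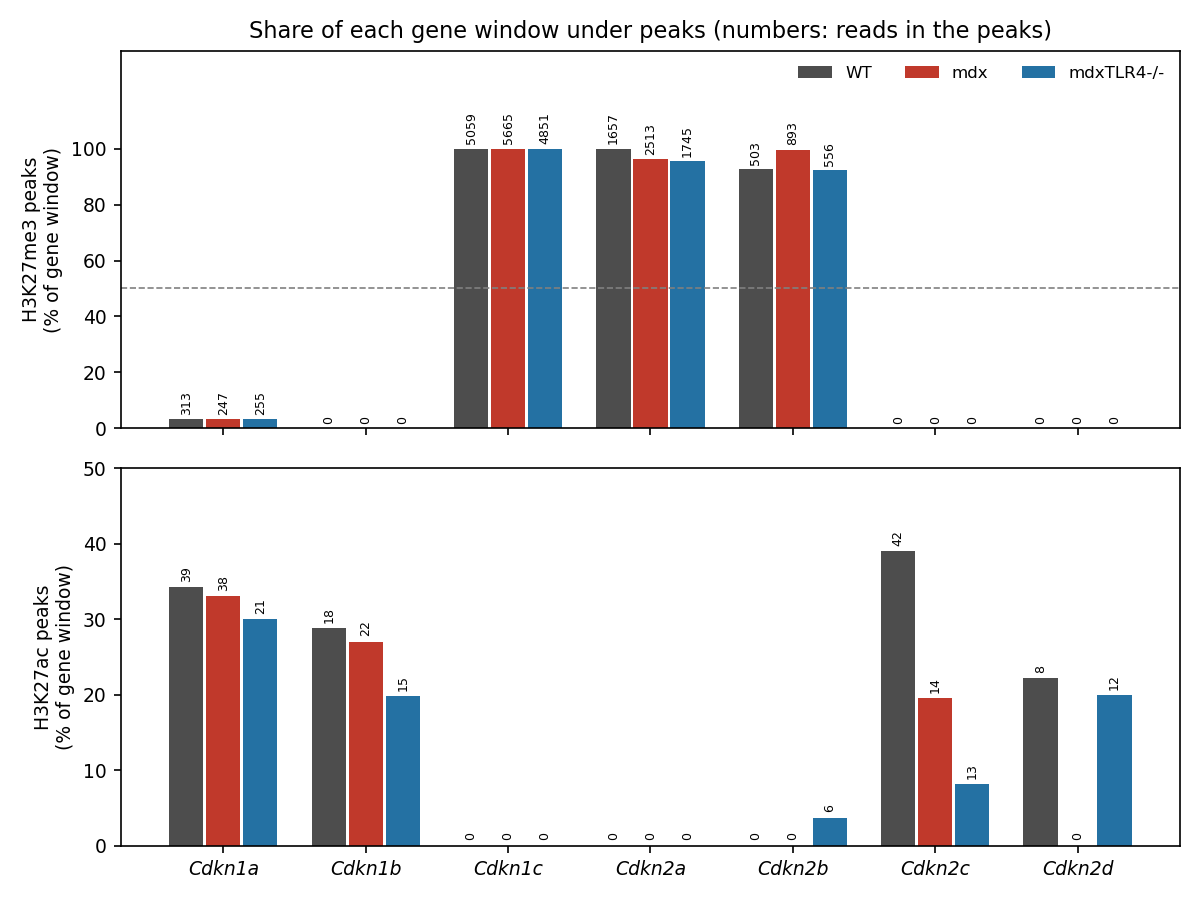
Share of the gene window under H3K27me3 peaks (upper panel, percent) and H3K27ac peaks (lower panel, percent) for the 7 inhibitor genes in WT, mdx and mdxTLR4-/- BMDM, 1 merged list per bar, with the reads in the peaks written above each bar and the 50% limit dashed. Cdkn1c, Cdkn2a and Cdkn2b stand above 92% for H3K27me3 in every genotype, and H3K27ac is found over Cdkn1a, Cdkn1b and Cdkn2c in every genotype.

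Among the Cip/Kip genes, Cdkn1c, which encodes p57 and is expressed from the maternal chromosome, had the heaviest H3K27me3. The gene (chr7:143458339-143461050, minus strand) was covered over 100% of its window in the 3 genotypes, as were 2.38% of protein-coding genes. In WT BMDM the peak over it was 103400 bp long and held 5059 reads, a density of 48.9 reads per kb. The mdx peak was 98000 bp long and held 5665 reads, a density of 57.8 reads per kb. The mdxTLR4-/- peak was 97200 bp long and held 4851 reads, a density of 49.9 reads per kb. These were among the longest peaks of each list, above 99.7% to 99.9% of the others in length. All 5 annotated transcript starts of Cdkn1c were under the peak in each genotype, and the nearest H3K27ac peak of any list was 81351 bp from the window.

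The domain of Cdkn1c was wider than the gene. Merged over the genotypes it ran for 135800 bp (chr7:143374601-143510400), longer than 99.5% of the H3K27me3 regions shared by the 3 lists. Its other protein-coding genes were the 3′ part of Kcnq1, a potassium channel gene, the transporter gene Slc22a18, and Phlda2, a gene of placental growth, all of the same imprinted cluster. The windows of Phlda2 and Cdkn1c were wholly covered in the 3 genotypes, and that of Slc22a18 was covered over 100% in WT and mdxTLR4-/- and 97.5% in mdx BMDM. The peak caller broke the domain at different places. In mdx BMDM an 800 bp gap lay 12551 to 13350 bp upstream of Cdkn1c and held the annotated start of Slc22a18. WT and mdxTLR4-/- BMDM had no gap there, and their gaps, of 800 bp in WT and of 800 and 2000 bp in mdxTLR4-/- BMDM, lay on the other side, within Kcnq1. The map of the domain shows these breaks, and how often gaps fell at other gene starts is not given here.

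**Figure D2:**
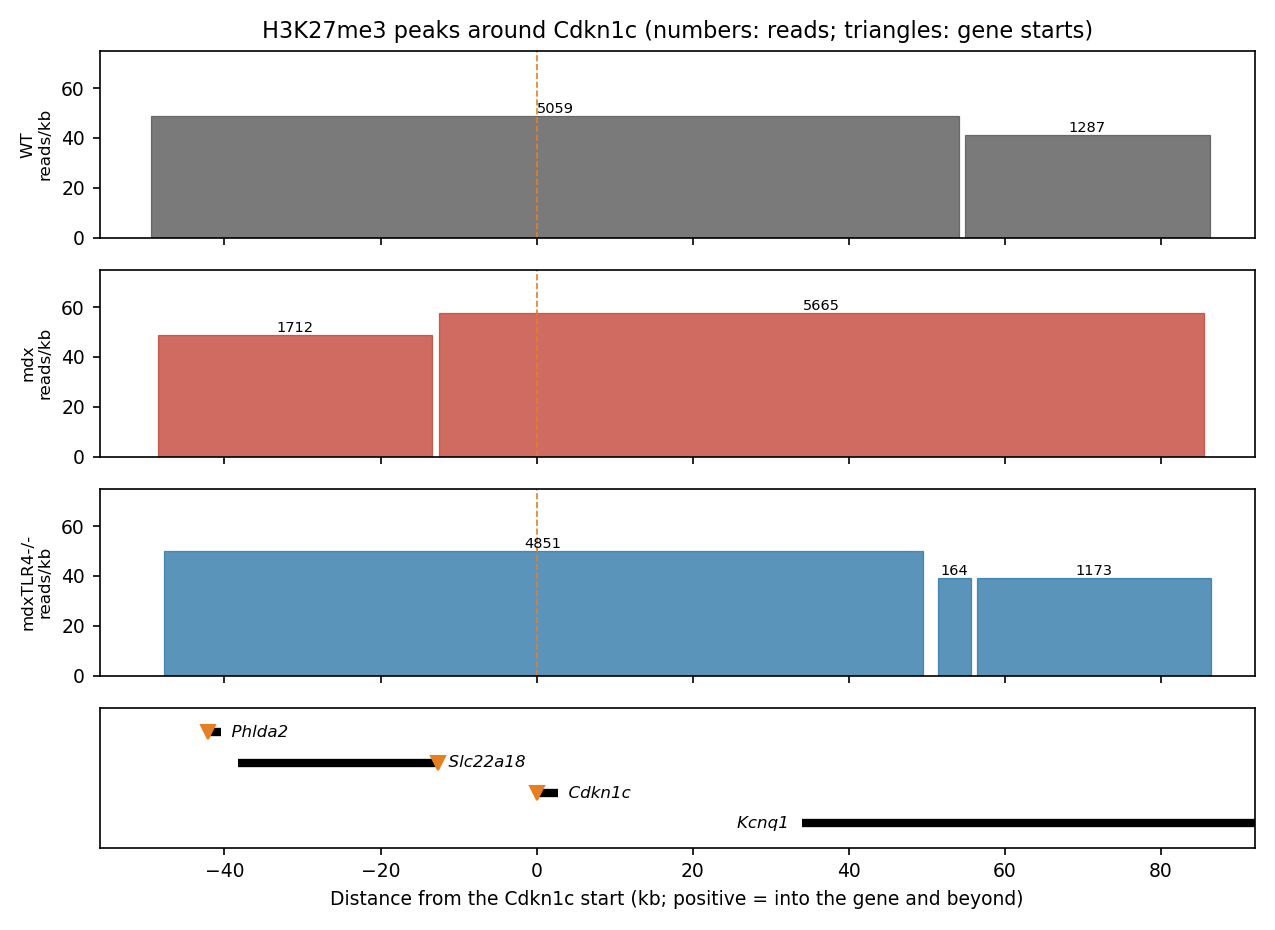
H3K27me3 peaks around Cdkn1c in WT, mdx and mdxTLR4-/- BMDM, drawn as boxes by distance from the Cdkn1c start in kb (horizontal) and reads per kb (vertical), with reads written on each peak and protein-coding genes and their starts below. The peak over Cdkn1c is 97200 to 103400 bp long in each genotype, and only in mdx does a gap of 800 bp fall at the start of Slc22a18.

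The whole merged domain held 6346, 7377 and 6188 reads in the WT, mdx and mdxTLR4-/- lists, over 134800, 133200 and 131400 bp of peaks. The read density of mdx was 1.18 times that of WT (95% interval 1.14 to 1.22), and the ratio of mdxTLR4-/- to WT was 1.00 (0.966 to 1.04). Across the 17103 regions with a peak in the 3 lists the median mdx to WT ratio was 1.22, and 90.8% of these regions had a ratio above 1. Relative to that median the ratio of the Cdkn1c domain was 0.966.

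Cdkn1a encodes p21, the inhibitor induced by p53. The gene (chr17:29090976-29100727, plus strand) had H3K27ac over its start in each genotype and H3K27me3 only beyond its end. In WT BMDM a single H3K27ac peak of 5400 bp with 39 reads ran from 375 bp before the first start to 5024 bp after it, and covered 4 of the 5 annotated transcript starts. In mdx BMDM 2 peaks of 2600 bp took its place, with 17 and 21 reads. In mdxTLR4-/- BMDM there were peaks of 1400 and 2200 bp with 6 and 8 reads, and another of 7 reads at the 3′ end. The second start, of transcripts Cdkn1a-201 and Cdkn1a-205 at positions 29093769 and 29093781, was therefore under a peak in WT only. The nearer edge of the downstream peak was at 29093801 in mdx and 29094001 in mdxTLR4-/- BMDM, so in mdx the miss was smaller than the 200 bp step of the peak caller. Of the 300 bases of the second promoter printed above, 300 were under H3K27ac in WT BMDM, 18 in mdx and 0 in mdxTLR4-/-.

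The H3K27ac density over the Cdkn1a peaks was 7.22 reads per kb in WT BMDM, 7.31 in mdx and 3.75 in mdxTLR4-/-. The mdx to WT ratio was 1.01 (0.630 to 1.62), an interval that includes equal density. The mdxTLR4-/- to WT ratio was 0.519 (0.290 to 0.905), and 0.539 (0.270 to 1.01) without the 3′ peak that mdxTLR4-/- alone had. Scaled per 1000000 reads in peaks, the first of these was 0.844 (0.472 to 1.47). It was 0.618 (0.346 to 1.08) relative to the median of shared regions and 0.454 (0.254 to 0.791) relative to the 1st percentile of density, so whether the interval included equal density depended on the scaling. The median ratio of the 6509 shared H3K27ac regions was 0.840 in this comparison, and 15.2% of them had a lower ratio than Cdkn1a. The mdxTLR4-/- list came from a single library, whose part in this difference cannot be told apart from the genotype.

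Past the 3′ end of Cdkn1a, an H3K27me3 peak began 474 bp after the gene in the 3 genotypes and touched 527 bp, or 3.35%, of its window. This peak, with 313 reads over 8400 bp in WT, 247 over 7800 bp in mdx and 255 over 7600 bp in mdxTLR4-/-, touched no annotated gene, and ended 4545 to 5345 bp before Rab44. Its density was 37.3 reads per kb in WT BMDM, 31.7 in mdx and 33.6 in mdxTLR4-/-. The mdx to WT ratio was 0.850 (0.716 to 1.01), an interval that includes equal density, whereas the median of shared regions was 1.22. The ratio was 0.698 (0.588 to 0.827) relative to that median, 0.694 (0.585 to 0.823) per 1000000 reads in peaks and 0.730 (0.615 to 0.865) relative to the 1st percentile of density, and these intervals exclude equal density. Only 1.85% of shared regions had a lower ratio. In mdx BMDM an H3K27ac peak of 5400 bp with 18 reads lay wholly inside this H3K27me3 peak, 1674 bp past the window. That H3K27ac peak was sparse, at 3.33 reads per kb against a median of 6.67 in the mdx H3K27ac list. WT had no H3K27ac peak inside this H3K27me3 peak. In mdxTLR4-/- BMDM the 7-read peak at the end of Cdkn1a overlapped the H3K27me3 peak by 1400 bp.

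Cdkn1b encodes p27, which keeps resting cells out of the cycle. The gene (chr6:134920401-134925513, plus strand) carried H3K27ac over its 3 transcript starts in each genotype and had no H3K27me3 peak nearer than 59488 bp from its window. The peak at the start held 18 reads over 3200 bp in WT BMDM, 22 over 3000 bp in mdx and 15 over 2200 bp in mdxTLR4-/-. The densities were 5.62, 7.33 and 6.82 reads per kb. The ratio to WT was 1.30 (0.668 to 2.58) in mdx and 1.21 (0.569 to 2.55) in mdxTLR4-/- BMDM, both including equal density, so a difference was not detectable at this depth. A second H3K27ac peak began just past the window, 88 bp in WT BMDM, 488 bp in mdx and 888 bp in mdxTLR4-/-, with 27, 27 and 15 reads.

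**Figure D3:**
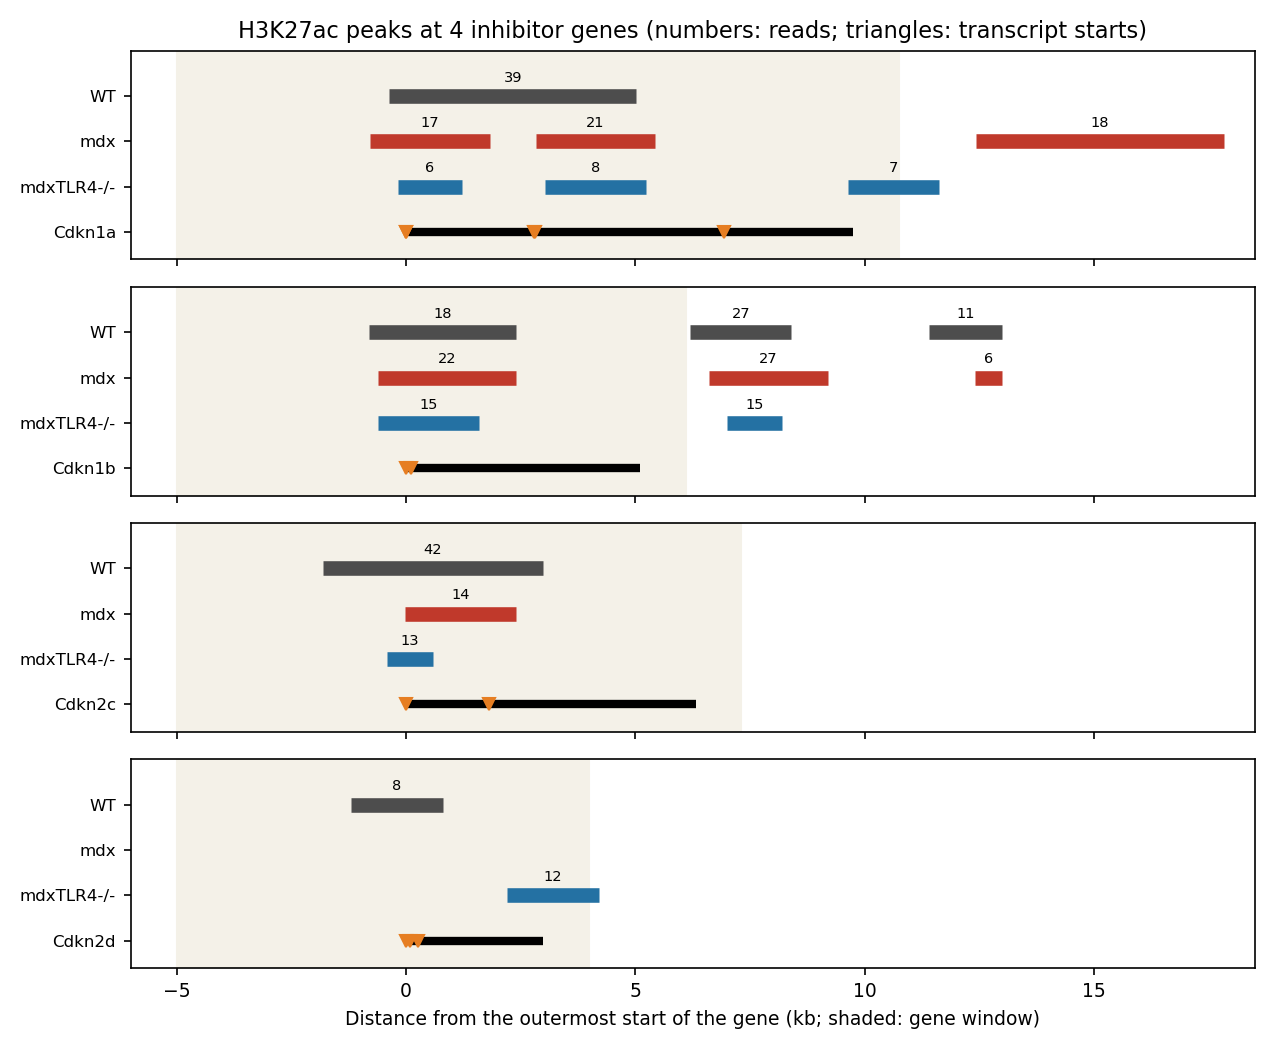
H3K27ac peaks at Cdkn1a, Cdkn1b, Cdkn2c and Cdkn2d in WT, mdx and mdxTLR4-/- BMDM, drawn as bars by distance from the outermost annotated start in kb, with reads above each bar, transcript starts as triangles and the gene window shaded. The peak over the Cdkn1a starts is single in WT (39 reads) and in separate pieces in mdx and mdxTLR4-/-, and the Cdkn2c peak is 4800 bp long in WT against 2400 and 1000 bp.

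Among the INK4 genes, Cdkn2a and Cdkn2b lie next to each other on chromosome 4 and shared H3K27me3 peaks, so their values are not independent. Cdkn2a (chr4:89274471-89294653, minus strand) has a pair of starts: a distal one at 89294653 for p19Arf, an activator of p53, and a proximal one 12461 bp inside the gene at 89282192 for p16. Cdkn2b (chr4:89306299-89311039, minus strand), which encodes p15, a target of TGF-beta signalling, starts 16386 bp upstream of the distal start. The H3K27me3 coverage of the Cdkn2a window was 100% in WT BMDM, 96.2% in mdx and 95.4% in mdxTLR4-/-. That of the Cdkn2b window was 92.6%, 99.6% and 92.2%. From the end of the first window to the end of the second, 42569 bp in all, 95.8%, 97.6% and 95.2% lay under peaks.

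The position of the gaps in this domain differed between genotypes, as the map of the locus shows. In WT BMDM a peak of 40000 bp with 1657 reads covered both Cdkn2a starts, and peaks with 338 and 165 reads lay over Cdkn2b, separated by a gap of 800 bp inside that gene. In mdx BMDM a peak of 22600 bp with 1620 reads ended 53 bp short of the distal Cdkn2a start, and a peak of 20400 bp with 893 reads began 948 bp upstream of that start and covered all of Cdkn2b. In mdxTLR4-/- BMDM a peak of 25400 bp with 1189 reads reached 2747 bp upstream of the distal start, and one of 16600 bp with 556 reads covered Cdkn2b. The distal start was thus under H3K27me3 in WT and mdxTLR4-/- and in a gap of 1000 bp in mdx, while the proximal p16 start and the Cdkn2b start were covered in the 3 genotypes. Of the 300 bases of the CpG-rich distal promoter printed above, 300 lay under a peak in WT BMDM, 31 in mdx and 300 in mdxTLR4-/-. Peak ends lie on a grid of 200 bp and gaps of up to 600 bp are closed by the caller, and the mdx gap spans 5 windows that were not called. No H3K27ac peak lay in it. The share of all genes whose start fell in such a gap in mdx alone is not given here. The mdx list was also more broken up than that of WT, with 41780 peaks of median 3400 bp against 28143 of 5400 bp.

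**Figure D4:**
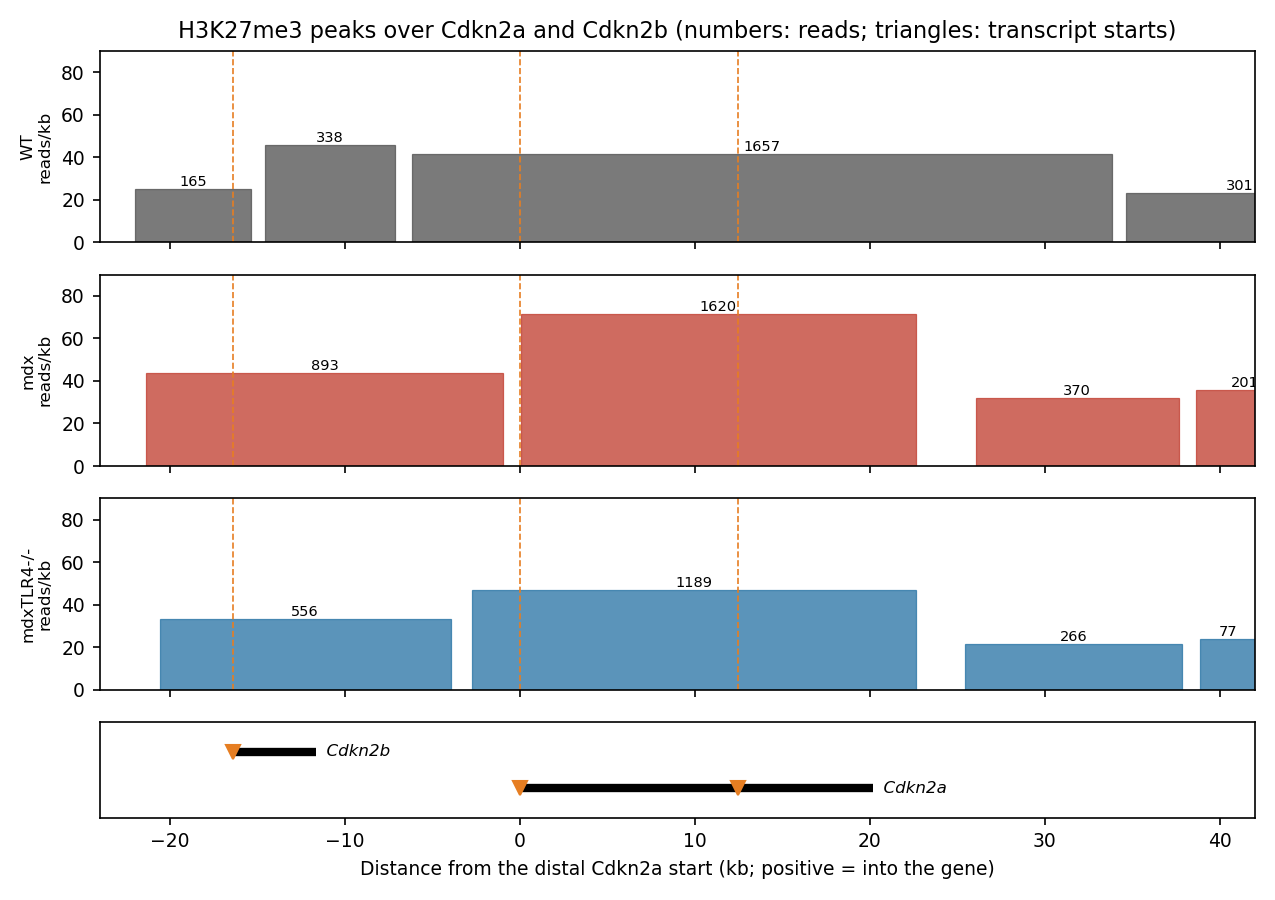
H3K27me3 peaks over Cdkn2a and Cdkn2b in WT, mdx and mdxTLR4-/- BMDM, drawn as boxes by distance from the distal Cdkn2a start in kb (horizontal) and reads per kb (vertical), with reads on each peak, genes below and transcript starts as triangles and dashed lines. The distal start falls in a 1000 bp gap in mdx and under a peak in WT and mdxTLR4-/-. The mdx peak over the Cdkn2a body is the densest at 71.7 reads per kb, and also the shortest of the 3 genotypes.

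Over all peaks that touched the Cdkn2a window, the density was 41.4 reads per kb in WT BMDM, 58.4 in mdx and 41.5 in mdxTLR4-/-. Unscaled, the mdx to WT ratio was 1.41 (1.32 to 1.50), and 85.5% of shared regions had a lower one. The unscaled mdxTLR4-/- to WT ratio was 1.00 (0.937 to 1.07). The mdx peak over the body of Cdkn2a reached 71.7 reads per kb over 22600 bp, above 99.1% of the mdx peaks. The matching peaks, of 40000 bp in WT and 25400 bp in mdxTLR4-/- BMDM, stood above 92.2% and 95.1% of their own lists. The peaks behind these densities ended at different places, the WT peak running on past the 3′ end of the gene to 89260801 and the mdx and mdxTLR4-/- peaks stopping at 89272001. The mdx and mdxTLR4-/- densities over the window also took in the peak over Cdkn2b, with 893 and 556 reads, and the WT density did not. The Cdkn2a ratios therefore do not compare the same stretch. Over the whole merged region (chr4:89234001-89316600, 82600 bp), whose only protein-coding genes are Cdkn2a and Cdkn2b, the reads numbered 2605, 3405 and 2148 over 74400, 73800 and 60000 bp of peaks. The ratio there was 1.32 (1.25 to 1.39) for mdx to WT, which 72.8% of shared regions fell below, and 1.02 (0.965 to 1.08) for mdxTLR4-/- to WT. Relative to the median ratio of shared regions, the mdx to WT ratio was 1.16 (1.09 to 1.23) over the Cdkn2a peaks and 1.08 over the merged region. The mdxTLR4-/- to WT ratio was then 1.045 (0.977 to 1.12) and 1.07. Per 1000000 reads in peaks, the Cdkn2a ratio to WT was 1.15 (1.08 to 1.23) in mdx and 1.14 (1.061 to 1.215) in mdxTLR4-/- BMDM. How far mdx stood apart from mdxTLR4-/- thus depended on the scaling.

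For Cdkn2b the densities were 35.9 reads per kb in WT BMDM, 43.8 in mdx and 33.5 in mdxTLR4-/-. They were taken over 14000, 20400 and 16600 bp of peaks that ended at different places, so these ratios too do not compare the same stretch. The mdx to WT ratio of 1.22 (1.09 to 1.36) was that of the median shared region, and relative to it the ratio was 1.00. The mdxTLR4-/- to WT ratio was 0.932 (0.825 to 1.05). The only H3K27ac peak at this locus was in mdxTLR4-/- BMDM, 400 bp long with 6 reads, 1362 to 1761 bp upstream of the Cdkn2b start and wholly inside the H3K27me3 peak, while 5.23% of protein-coding genes had a peak in mdxTLR4-/- and not in WT. Peaks of 6 reads or fewer made up 34.7% of that list.

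**Figure D5:**
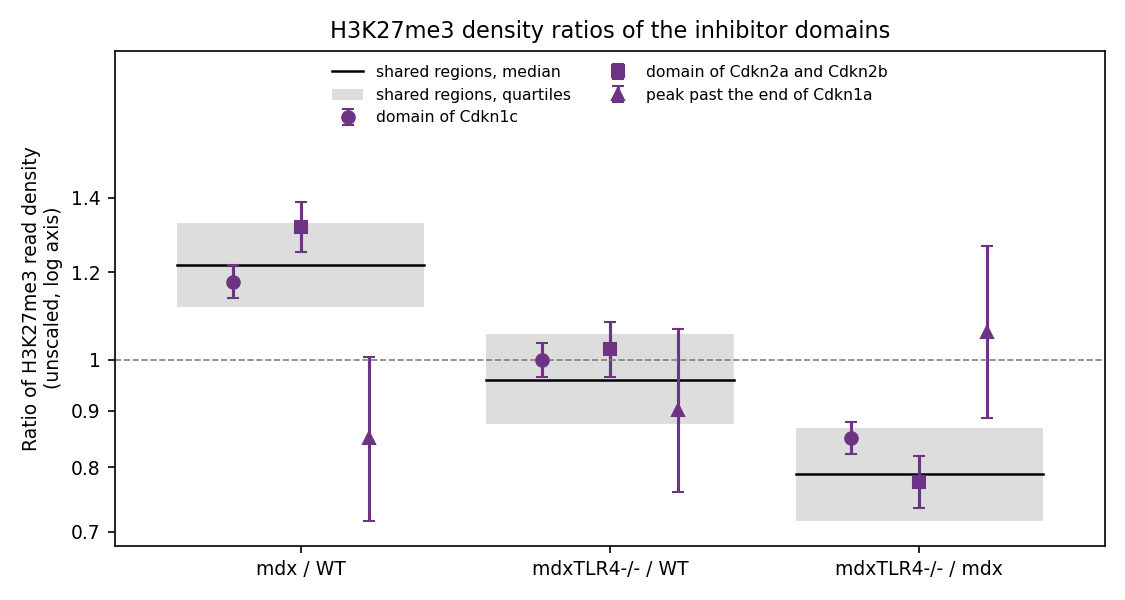
Ratio of H3K27me3 read density between genotypes (log axis, unscaled) for the merged domains of Cdkn1c and of Cdkn2a with Cdkn2b and for the peak past the end of Cdkn1a, with exact 95% counting intervals; grey boxes and black lines give the quartiles and the median of the 17103 shared regions. The mdx to WT ratios of 1.18 and 1.32 lie within the quartiles of 1.12 and 1.33, and that of the Cdkn1a peak, 0.850, lies below them.

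Cdkn2c encodes p18, and its gene (chr4:109660876-109667189, minus strand) carried H3K27ac at its start and no H3K27me3 in the window. The H3K27ac peak held 42 reads over 4800 bp in WT BMDM, 14 over 2400 bp in mdx and 13 over 1000 bp in mdxTLR4-/-. The WT peak was the longest, and both the mdx and mdxTLR4-/- peaks lay inside its span. The upstream start, at 109667189, was covered in the 3 genotypes, and the downstream start, at 109665372, was covered in WT and mdx and not in mdxTLR4-/- BMDM. The densities were 8.75, 5.83 and 13.0 reads per kb, with ratios to WT of 0.667 (0.336 to 1.25) in mdx and 1.49 (0.732 to 2.82) in mdxTLR4-/- BMDM, both of which include equal density. Scaled per 1000000 reads in peaks, the mdxTLR4-/- ratio was 2.42 (1.19 to 4.59), which excludes it. The ratio was 1.77 (0.871 to 3.36) relative to the median of shared regions and 1.30 (0.640 to 2.47) relative to the 1st percentile of density. Both of these intervals include equal density, so the reading depended on the scaling, and the mdxTLR4-/- peak held 13 reads from a single library. The Cdkn2c densities were taken over peaks of unlike length, so the ratios do not compare the same stretch of the gene. An H3K27me3 peak lay just outside the window, 1076 bp from it in WT with 59 reads and 876 bp in mdx with 66 reads, and the nearest in mdxTLR4-/- BMDM was 33276 bp away.

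Cdkn2d encodes p19Ink4d, and its gene (chr9:21288410-21291407, minus strand) had only small H3K27ac peaks and no H3K27me3 peak in its window. In WT BMDM an H3K27ac peak of 2000 bp with 8 reads covered its 3 starts. In mdx BMDM no H3K27ac peak was called, and 9.94% of all protein-coding genes likewise had a peak in WT and none in mdx. In mdxTLR4-/- BMDM a peak of 2000 bp with 12 reads lay at the 3′ end, 2207 to 4206 bp after the start, and also touched the neighbouring gene Kri1. The smallest H3K27ac peaks in the lists held 5 reads, so a start with fewer reads would not have been listed.

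Other genes of the cell cycle were counted in the same way. Of 32 genes for cyclins, their kinases, Rb and E2F proteins, p53 and Myc regulators, 8 had any H3K27me3 peak in WT BMDM, 11 in mdx and 9 in mdxTLR4-/-, against 38.4%, 41.3% and 39% of protein-coding genes. At least 50% of the window was covered for 1 of the 32 in each genotype, against 16.6%, 16.3% and 14.9%. This gene was Mycn, at 100%, 95.7% and 100%, a Myc family factor of embryonic tissues. H3K27ac peaks were present for 15, 15 and 14 of the 32, against 39.9%, 34.5% and 36.5% of protein-coding genes. The median coverage of these genes was 0% for both marks, as it was over all protein-coding genes, against medians over the 7 inhibitors of 3.35% for H3K27me3 in each genotype and of 22.2%, 0% and 8.12% for H3K27ac.

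Genes with the most similar coverage were sought over the 6 values of each gene, 2 marks in 3 genotypes, by Euclidean distance in percentage points. The pattern of Cdkn1c, 100% H3K27me3 and 0% H3K27ac throughout, was shared exactly by 513 protein-coding genes. The nearest to Cdkn2a were Krt77, a keratin gene, at 0.854, and Chrna3, a nicotinic receptor subunit gene, at 1.05. The nearest to Cdkn2b were Papolb at 3.76 and Gm6569 at 3.84. The nearest to Cdkn1a were Gm21988 at 4.91 and Hist1h1d, a linker histone gene, at 5.97. Within a distance of 10 lay 1123 genes for Cdkn2a, 447 for Cdkn2b and 48 for Cdkn1a, so the genes named are the nearest of many.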

How the data were processed

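Native chromatin of BMDM was digested with micrococcal nuclease and sequenced after immunoprecipitation of H3K27me3 or H3K27ac. Reads were aligned to mm10 by the authors with Bowtie2 (version 2.3.4 in the submitters' processing notes), replicates were pooled, and peaks were called with SICER (version 2.0 in those notes, SICER2 in the study's methods) using 200 bp windows, gaps of up to 600 bp and an FDR of 0.01. The removal of duplicate reads is not given in the sources used here. The deposited values are counts of ChIP reads per peak, which the authors neither scaled for depth nor corrected for input, in 6 lists. Library depth was not known.

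Peak starts, counted from 0 in the files, were written counted from 1. Genes came from GENCODE vM21 (GRCm38) without the mitochondrial genes. Peaks were assigned to gene windows, and coverage, reads, reads per kb of peak and density ratios with exact 95% intervals were computed. Regions were built by merging peaks of any genotype that shared 1 bp or more. No test between genotypes was possible with 1 list each. The 7 genes and the lists of cell cycle and marker genes were chosen with earlier results of these data known. Genes named were the 7 inhibitors, genes under the same H3K27me3 peak, the cell cycle genes with at least 50% of the window under H3K27me3, and the 2 genes nearest in coverage to each inhibitor with an H3K27me3 peak. Col1a1, Gata1, Tlr4, Kri1 and Rab44 were added where a value touched on them. Alternatives changed the peak length, density, number and reads, the overlap, the window, the coverage limit and the scaling of densities. The procedure was tested on simulated data with known coverage and ratios. The tools were Python 3.11.15 with pandas 2.3.3, numpy 2.4.6 and scipy 1.17.1, and matplotlib 3.10.9 for plots.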

Additional observations from a re-analysis of the deposited data

How the results depend on the processing

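No paired analysis was possible because peaks were called on merged replicates, and leaving out a replicate could not be done for the same reason. Of the alternative counts of genes, 73 stayed within 1.5 times the value given and 5 did not. When at least 50% of a peak had to lie in the window, genes with an H3K27me3 peak fell from 4 to 2 in each genotype, with Cdkn1c and Cdkn1a lost. The loss of Cdkn1c was fixed by the rule, since its window of 8712 bp is far shorter than its peaks of 97200 to 103400 bp. With at least 10 reads per peak, genes with an H3K27ac peak in mdxTLR4-/- BMDM fell from 5 to 3, with Cdkn1a and Cdkn2b lost, and over the 5 kb upstream of the start with at least 200 bp of peak they also fell to 3. The count of genes with at least 50% H3K27me3 was 3 in each genotype under every alternative run.

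Of the alternative density ratios, 66 stayed within the interval given, 17 moved out of it and 3 reversed. Per 1000000 reads in peaks, the H3K27me3 ratio of mdx to WT was 0.694 at Cdkn1a, 0.965 at Cdkn1c, 1.15 at Cdkn2a and 0.995 at Cdkn2b, so that Cdkn1c and Cdkn2b no longer exceeded WT. The ratio of mdxTLR4-/- to WT was then 1.16 at Cdkn1c, 1.14 at Cdkn2a and 1.06 at Cdkn2b. With each list scaled by its own 1st percentile of density, mdx to WT was 1.02 at Cdkn1c, 1.21 at Cdkn2a and 1.05 at Cdkn2b, and mdxTLR4-/- to WT was 1.12 at Cdkn1c and 1.10 at Cdkn2a. Relative to the median ratio of shared regions, mdx to WT was 0.698 at Cdkn1a, 0.970 at Cdkn1c, 1.16 at Cdkn2a and 1.00 at Cdkn2b, and mdxTLR4-/- to WT was 1.06 at Cdkn1c. With only peaks that lay at least 50% in the window, the Cdkn2a ratio was 1.73 for mdx and 1.13 for mdxTLR4-/-. This setting left the peak over Cdkn2b out of the mdx and mdxTLR4-/- values. Over the whole merged region, an alternative chosen after seeing the data, the Cdkn2a ratio was 1.32 for mdx. The ratio of mdx to WT at Cdkn2a stayed above 1 under each of these settings. That of mdxTLR4-/- to WT at Cdkn2a was also above 1 under each scaling.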
